A study of Mus musculus with 8 samples.

Results

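The genes of the mitotic cyclins and of the regulators of the kinase CDK1 were followed as targets of NF-YA in muscle stem cells (MuSCs), the resident stem cells of skeletal muscle. The set holds 10 genes chosen by name, namely *Ccna2*, *Ccnb1*, *Ccnb2*, *Cdk1*, *Cdc25a*, *Cdc25b*, *Cdc25c*, *Aurka*, *Plk1* and *Top2a*, and all peaks that carry one of these symbols were taken. They are classical CCAAT-driven genes, so that the presence of CCAAT near their starts is in part given by this choice. Of the 10 genes 9 had a peak, each exactly 1, so that 9 of the 7196 peaks in the table are described here. *Cdc25b* was the gene without a peak. NF-YA binding was measured by CUT&RUN, in which a nuclease tethered to an antibody on chromatin cuts out the DNA next to the bound protein. The cells came from C57BL/6 mice and were taken as activated, proliferating MuSCs in culture, an identity that binding data of 1 factor do not test. The study's methods name culture for larger libraries of wild type cells and do not state it for those of 400000 cells. Control cells were compared with Taf4asKO cells, in which exons 11 to 12 of *Taf4a*, a gene for a subunit of the general transcription factor TFIID, are flanked by loxP sites and removed with a tamoxifen-dependent Cre driven by *Pax7*, a gene active in MuSCs. The study's reporting notes give animals of 8 to 20 weeks on this background. They list littermate controls that carry Taf4a fl/fl and either Pax7CE+/+ or Pax7CE+/p, and Taf4asKO as Pax7CE+/p and Taf4a fl/fl with tamoxifen, in each case with or without a Pax7 Zs green reporter. The titles call the control libraries WT, and the methods speak of wild type cells. Which genotype of the controls gave these libraries, and whether the replicates are separate animals, is not stated in the sources used here, so that p-values measure the spread between these samples, which may be technical. Each genotype had 2 NF-YA libraries of 400000 cells. The 4 IgG libraries were not analysed here.

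Entry into mitosis is driven by CDK1 bound to a cyclin of the A or B type. The kinase is held inactive by inhibitory phosphates until phosphatases of the CDC25 family remove them, and Aurora A and PLK1 push this switch forward. NF-Y is a trimer of NF-YA, NF-YB and NF-YC that binds the CCAAT pentamer (NF-Y box), and promoters of genes expressed in the G2 and M phases are classical places where several such boxes follow each other, often next to a second element near the start site, the cell cycle genes homology region (CHR).

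The promoters of 4 members held a pair or a row of NF-Y boxes at similar gaps. These sequences are shown first because the gaps can be read directly from the letters. The sequences are from mm10 and are written 5′ to 3′ on the strand of the gene. Capitals mark CCAAT or its reverse complement ATTGG, depending on the orientation of the box.
*Ccnb1* (chr13:100786541-100786670, minus strand): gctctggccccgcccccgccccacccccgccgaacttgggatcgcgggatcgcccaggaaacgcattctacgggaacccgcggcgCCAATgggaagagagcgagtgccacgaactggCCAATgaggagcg
*Ccnb2* (chr9:70421525-70421667, minus strand): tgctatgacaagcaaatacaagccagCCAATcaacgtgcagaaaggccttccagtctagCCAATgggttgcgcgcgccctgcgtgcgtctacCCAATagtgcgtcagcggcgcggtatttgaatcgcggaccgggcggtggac
*Cdk1* (chr10:69352909-69353058, minus strand): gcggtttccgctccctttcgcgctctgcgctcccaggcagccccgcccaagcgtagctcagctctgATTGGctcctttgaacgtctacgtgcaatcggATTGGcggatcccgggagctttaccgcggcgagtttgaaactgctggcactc
*Aurka* (chr2:172370541-172370655, minus strand): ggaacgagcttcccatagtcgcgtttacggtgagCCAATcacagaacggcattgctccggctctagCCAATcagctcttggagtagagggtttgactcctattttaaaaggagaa
In *Ccnb1*, *Cdk1* and *Aurka* the first bases of the 2 printed boxes lay 32 bases apart, and in *Ccnb2* 3 boxes followed each other with gaps of 33 and 33 bases. A further box of *Cdk1*, 128 bases before the first of its pair, lies outside the stretch printed. Within each of these promoters the printed boxes pointed the same way, along the gene in *Ccnb1*, *Ccnb2* and *Aurka* and against it in *Cdk1*.

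The next 4 sequences show the other layouts, namely the peak with the most boxes (*Top2a*), the peak with the lowest signal (*Plk1*), a box inside the annotated gene (*Ccna2*) and the promoter that holds a box but had no peak (*Cdc25b*).
*Top2a* (chr11:99024189-99024429, minus strand): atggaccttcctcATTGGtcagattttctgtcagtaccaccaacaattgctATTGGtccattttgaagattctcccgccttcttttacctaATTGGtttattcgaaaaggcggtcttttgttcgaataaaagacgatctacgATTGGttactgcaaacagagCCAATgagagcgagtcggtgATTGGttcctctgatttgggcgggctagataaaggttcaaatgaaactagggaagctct
*Plk1* (chr7:122159339-122159464, plus strand): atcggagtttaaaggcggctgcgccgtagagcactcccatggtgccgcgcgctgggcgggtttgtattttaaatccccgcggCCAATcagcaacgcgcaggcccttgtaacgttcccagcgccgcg
*Ccna2* (chr3:36572009-36572037, minus strand): ccggacgccctcATTGGtttatttcaata
*Cdc25b* (chr2:131186829-131186977, plus strand): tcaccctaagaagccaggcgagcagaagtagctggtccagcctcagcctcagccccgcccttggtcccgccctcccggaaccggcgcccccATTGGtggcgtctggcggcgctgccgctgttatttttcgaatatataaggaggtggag
*Top2a* held 6 boxes within its peak, 5 of them against the direction of the gene, with gaps of 38, 40, 51, 20 and 20 bases between neighbours. *Plk1* and *Ccna2* held 1 box each. The single box of *Cdc25b* lies at -28 from the RefSeq start, where 0 is the first transcribed base, and this promoter also held 4 copies of GGGCGG or its reverse complement and 1 of TTTGAA or TTCGAA.

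Every member peak held at least 1 NF-Y box over its full width. The 9 peaks held 24 boxes in all, 10 in the direction of the gene and 14 against it. Of these boxes 22 lay upstream of the annotated gene start and 21 lay within 200 bases upstream of it. The boxes of *Ccnb1* were at -15 and 17, those of *Ccnb2* at -94, -61 and -28, those of *Cdk1* at -182, -54 and -22, and those of *Aurka* at -86 and -54 (first base of the box, GENCODE start). These distances depend on the annotated start. From the RefSeq starts the boxes of *Ccnb1* were at -99 and -67, those of *Aurka* at -51 and -19 and the last pair of *Cdk1* at -80 and -48. The box of *Ccna2* was 125 bases inside the gene as annotated from its outermost start, and -61 from the next of its 5 annotated transcript starts. The map of boxes along the peaks shows the layout of each gene.

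**Figure D1:**
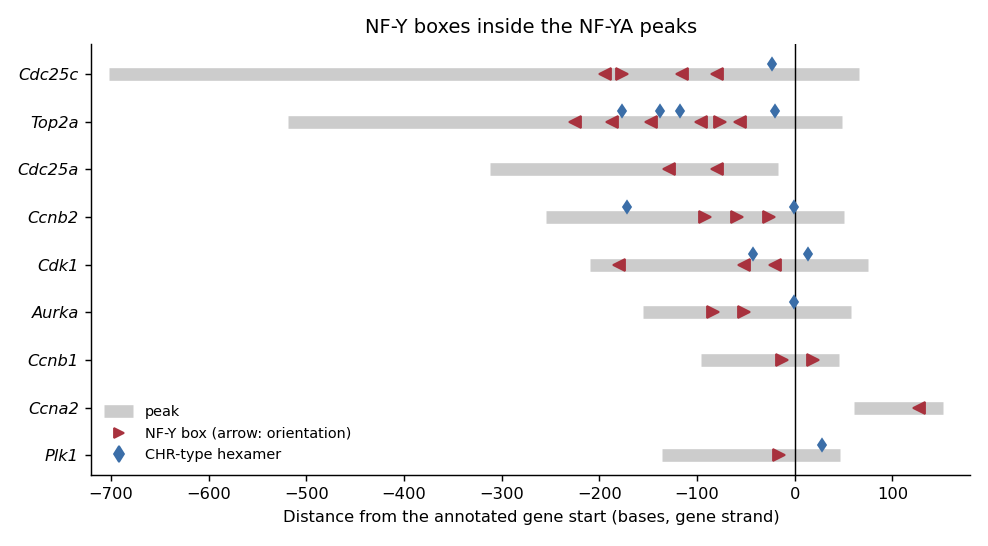
Position of NF-Y boxes (red arrows, pointing along or against the gene) and CHR-type hexamers (blue diamonds) inside the 9 peaks (grey bars), as distance in bases from the annotated gene start, with genes ordered by signal from *Cdc25c* at the top to *Plk1* at the bottom. The boxes gather in the 200 bases before the start, the peak of *Ccna2* lies wholly inside the gene, and the boxes of *Cdc25c* lie in the part of its wide peak next to the gene.

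A single CCAAT was common in other peaks as well. In the central 200 bases CCAAT was found, on either strand, in 8 of 9 member peaks (88.9%, 95% Wilson interval 56.5 to 98.0), in 78.5% of all 7196 peaks and in 88.2% of the 2586 peaks within 1000 bases of the start of a protein-coding gene. The exception was *Cdc25c*, whose 4 boxes lay 124 bases or more from the peak centre. CCAAT preceded by 2 purines and followed by C or G and then a purine, an extended form of the NF-Y site, was in 8 of 9 members, in 41.3% of all peaks and in 55.8% of peaks near coding starts. Of the members 6 of 9 held 2 or more boxes in this window, compared with 36.4% of all peaks and 50.9% of those near coding starts.

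A pair of boxes in the same orientation with 31 to 34 bases between their first bases was in 4 of 9 members (44.4%, 95% Wilson interval 18.9 to 73.3), in 4.17% of all peaks and in 7.77% of peaks near coding starts. The range of 31 to 34 bases was chosen after the positions in the members had been seen, so that these shares are a description. Over all peaks the central 200 bases held 3272 pairs in the same orientation, and the most frequent gap was 32 bases with 124 pairs. Next came 41 bases with 122 pairs and 31 bases with 117 pairs.

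**Figure D2:**
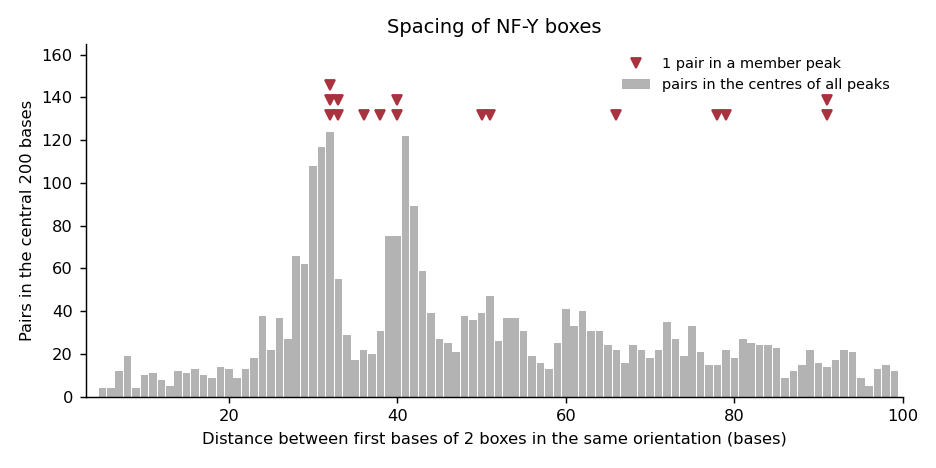
Number of pairs of NF-Y boxes in the same orientation in the central 200 bases of all 7196 peaks (grey bars) by the distance between their first bases. The red marks, stacked above the bars, are pairs inside the whole member peaks and show 3 pairs at 32 bases and 2 at 33 bases, next to the peak of the distribution, whereas the remaining member pairs are spread from 36 bases upwards.

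TTTGAA or TTCGAA, the letters of CHR-type elements, occurred on either strand in the central 200 bases of 5 of 9 member peaks, compared with 10.4% of all peaks and 9.32% of those near coding starts. Over their full width 6 members held such a hexamer. In *Ccnb2* and *Aurka* 1 copy started at -3, in *Cdk1* copies lay at -45 and 11, and in *Plk1* the copy lay at 26. *Top2a* held 4 copies. GGGCGG, the core of a GC box, was in 4 of 9 members, 27.8% of all peaks and 56.7% of peaks near coding starts, and TATAAA was in 0 of 9 members and 4.74% of all peaks. Of the RefSeq promoters of 300 bases (GRCm38.p6) 8 of the 10 members could be matched, and all 8 held CCAAT, compared with 37.4% of 32851 promoters. The pair with 31 to 34 bases was in 4 of these 8 promoters and in 0.895% of all. These are the 4 genes whose boxes were seen before the range was chosen, so that this is the same description again. Among promoters CCAAT alone did not decide whether a peak was listed, since 70.7% of promoters of genes with a peak and 34.6% of those without held it, the promoter of *Cdc25b* among the latter.

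The peaks lay at promoters. All 9 were within 1000 bases of the start of their gene by the distance in the table, from 26 bases in *Ccnb1* to 318 bases in *Cdc25c*, and 8 of 9 reached into the region upstream of the start. By comparison 2586 of all 7196 peaks lay within 1000 bases of a coding start. Of all 21951 protein-coding genes 14.6% had an assigned peak. *Cdc25b* (chr2:131186949-131198497, plus strand), the third CDC25 phosphatase, was 26776 bases from the centre of the nearest peak, which was assigned to *1700037H04Rik*. A gene without a listed peak has no value in the table, so that the level at *Cdc25b* is not known here.

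The depth differed between libraries and was lowest in control replicate 2. The values are read counts that the authors normalised and rounded, here called normalised read counts. As estimated from the steps between values, 1 read was worth 1.04 and 3.26 in the control libraries (replicates 1 and 2) and 0.431 and 0.681 in the Taf4asKO libraries, so that a given value rests on the fewest reads in control replicate 2. Reads in peaks ranged from 111267 to 736171. A check of the genotype in the libraries was not possible at the loxP-flanked exons, because 0 peaks lay over exons 11 and 12 of *Taf4*, the gene symbol for *Taf4a*. Over other exons of this gene the table lists 7 peaks, with values of 29 to 417 in the control and 3 to 62 in the Taf4asKO libraries. At each of them both Taf4asKO values were below both control values. The highest had 366 and 417 in the control and 35 and 62 in the Taf4asKO libraries, and the lowest 29 and 39 against 3 and 3. The cause was not tested.

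The signal differed widely between the members. In the control libraries the peak mean ranged from 7.0 ± 5.66 at *Plk1* to 363.0 ± 42.4 at *Cdc25c* (SD, n = 2). Of all peaks 98.2% were lower than *Cdc25c*, 97.3% were lower than *Top2a* and 88.3% were lower than *Cdc25a*, whereas *Ccna2* was above 59.9% and *Plk1* above 25.3%. Peaks differ in width, from 92 bases at *Ccna2* to 769 bases at *Cdc25c*, and levels were therefore compared per 100 bases. On this scale *Top2a* was highest (control mean 52.9), followed by *Cdc25c* (47.2) and *Cdc25a* (39.4), and the control libraries of these 3 neighbours did not overlap. *Ccnb1* (29.6 and 32.4 in its libraries), *Aurka* (control mean 29.9), *Ccnb2* (28.2), *Ccna2* (27.7) and *Cdk1* (23.4) followed closely. The control values of *Ccna2*, 33.7 and 21.7 per 100 bases, spanned the means of all of these 5. *Plk1* was far below at 3.83. The leading 3 genes and the last were in the same order in Taf4asKO cells, with 44.6 at *Top2a*, 37.3 at *Cdc25c*, 31.4 and 36.5 in the libraries of *Cdc25a*, and 6.83 at *Plk1*. There *Top2a* had 40.1 and 49.1 and *Cdc25c* 34.2 and 40.3, so that the values of the leading 3 overlapped between libraries, whereas their order held within each of the 4 libraries.

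**Figure D3:**
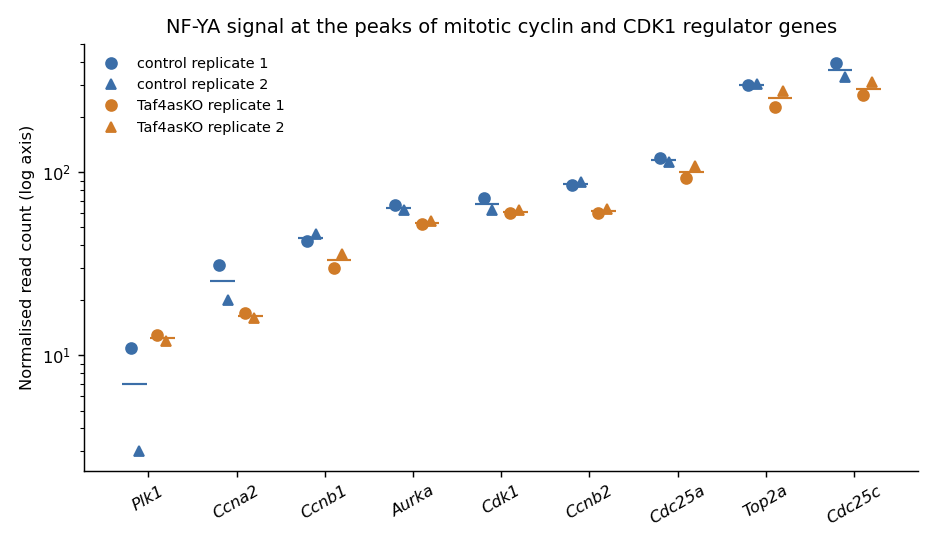
Normalised read count on a log axis at the 9 member peaks in each of the 4 NF-YA libraries, ordered by control mean, with horizontal lines at the mean of each genotype. The Taf4asKO values lie below both control values at every gene except *Cdk1*, where they touch, and *Plk1*, where they lie above.

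Higher peaks held more boxes and were wider. Across the 9 peaks the correlation of the number of CCAAT with the control mean was r = 0.839 (Spearman's rho = 0.872), and that of peak width with the control mean was r = 0.973 (rho = 0.933). Per 100 bases the correlation with the number of boxes was r = 0.76 (rho = 0.633). These are descriptions over 9 peaks that share the same libraries, and a wider peak holds more bases in which a box can occur.

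The question of the comparison was whether NF-YA was less present at these promoters once *Taf4a* was inactivated. None of the 8 tested members passed the test (limma, adjusted p under 0.05), compared with 45 of all 4746 tested peaks (0.948%). At an unadjusted p under 0.05 the counts were 2 members, *Ccnb2* and *Cdc25c*, and 849 of all tested peaks. With equal totals they were 0 members and 903 peaks, with strong peaks centred 0 members and 944 peaks, with equal medians 3 members and 1000 peaks, and with weights from reads 3 members and 999 peaks. Both control values were above both Taf4asKO values at 7 of the 8 tested members as deposited, a pattern found at 28.6% of all tested peaks. The tested peaks come from a set merged over the libraries, so that a low peak can be listed through 1 genotype alone. The study's reporting notes list more called peaks in each Taf4asKO library than in the control library of the same number. Whether this shifts the shares and the median over all tested peaks was not tested. The median log2 fold change of the 8 members was -0.30, and that of all tested peaks was -0.04. The share of peaks with a lower Taf4asKO mean differed with the level of the peak. It was 44.5% of peaks with a mean of 20 to 50 (median log2 ratio 0.05), where *Ccna2* and *Ccnb1* lay, and 56.3% of those with a mean of 50 to 100 (-0.06), where *Aurka*, *Cdk1* and *Ccnb2* lay. It was 79.3% at a mean of 100 to 200 (-0.19), the range of *Cdc25a*, and 94.1% at 200 to 400 (-0.25), the range of *Top2a* and *Cdc25c*. The direction of *Cdk1* turned when libraries were set to equal totals (0.01 on the log2 scale) or when peaks with a mean of at least 100 were centred (0.08), whereas the other 7 stayed below 0 under both. With strong peaks centred, however, *Cdc25a* was at -0.004, *Top2a* at -0.04 and *Aurka* at -0.06.

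Of the mitotic cyclins, *Ccnb2* gave the tightest replicates. Cyclin B2 is the Golgi-associated partner of CDK1, and its peak (chr9:70421496-70421802) covers the 3 boxes shown above. The normalised read counts were 85 and 88 in the control and 60 and 63 in the Taf4asKO libraries. Both Taf4asKO libraries were below the controls, with a mean at 71.1% of the control mean, and the value of 88 rests on 27.0 reads. The log2 fold change was -0.49 with a 95% interval from -0.90 to -0.07 (limma, adjusted p = 0.218). With equal totals it was -0.34 (-0.72 to 0.04), and with strong peaks centred -0.28 (-0.66 to 0.11). The peak of *Ccnb1* (chr13:100786525-100786666), the gene for the main mitotic partner of CDK1, had 42 and 46 in the control and 30 and 36 in the Taf4asKO libraries. Again the groups did not overlap, although the value of 46 rests on 14.1 reads. The log2 fold change was -0.41 with an interval from -0.95 to 0.13 (limma, adjusted p = 0.389), or -0.27 with equal totals and -0.20 with strong peaks centred. *Ccna2* encodes cyclin A2, which acts in S phase and at the entry into mitosis. Its peak (chr3:36571998-36572089) had 31 and 20 in the control and 17 and 16 in the Taf4asKO libraries. Here the controls differed more from each other than the lower control did from the Taf4asKO values, and control replicate 2 rests on 6.13 reads. The log2 fold change of -0.57 had the widest interval of the 8 tested members, from -1.32 to 0.18 (95%, limma, adjusted p = 0.389). It was -0.26 without control replicate 1 and -0.87 without control replicate 2.

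*Cdk1*, which encodes the kinase itself, was the tested member with the smallest difference as deposited, though not with strong peaks centred. Its peak (chr10:69352863-69353148) had 72 and 62 in the control and 60 and 62 in the Taf4asKO libraries. Control replicate 2 and Taf4asKO replicate 2 had the same value, so that the groups touched. The log2 fold change was -0.13, with a 95% interval from -0.58 to 0.32 (limma, adjusted p = 0.754). It was -0.02 without control replicate 1 and -0.24 without control replicate 2.

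The CDC25 phosphatases remove the inhibitory phosphates from CDK1, and CDC25A does so also for CDK2 in earlier phases. The peak of *Cdc25c* (chr18:34751467-34752235) was the highest of the set, with 393 and 333 in the control and 263 and 310 in the Taf4asKO libraries. All Taf4asKO values were below the controls. The log2 fold change was -0.34, with a 95% interval from -0.66 to -0.02 (limma, adjusted p = 0.252). It was -0.22 without replicate 1 and -0.46 without replicate 2 of either genotype. With equal totals it was -0.20 (-0.42 to 0.03), and with strong peaks centred -0.13 (-0.35 to 0.09). The start of a second gene, the long non-coding RNA *2010110K18Rik*, lies within 1000 bases of this one, and the wide peak was not divided between them. *Cdc25a* (chr9:109875267-109875562) had 119 and 114 in the control and 93 and 108 in the Taf4asKO libraries. These groups did not overlap either, although the value of 114 rests on 35 reads. The log2 fold change was -0.21 with an interval from -0.60 to 0.17 (limma, adjusted p = 0.521). It was -0.11 without Taf4asKO replicate 1 and -0.32 without Taf4asKO replicate 2.

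*Aurka* encodes Aurora A, the kinase of the spindle poles that activates PLK1. Its peak (chr2:172370477-172370690) had 66 and 62 in the control and 52 and 54 in the Taf4asKO libraries. The groups did not overlap, but the value of 62 in control replicate 2 rests on 19 reads. That is too few to judge the gap between the groups or the closeness of the replicates. The log2 fold change was -0.27 with an interval from -0.72 to 0.18 (limma, adjusted p = 0.497). The start of *Cstf1*, a protein-coding gene for a factor of RNA 3′ end cleavage on the opposite strand, lies within 1000 bases, so that the peak cannot be given to *Aurka* alone. *Top2a*, the gene for the topoisomerase that untangles sister chromatids, was the second highest peak (chr11:99024141-99024708), with 298 and 303 in the control and 228 and 279 in the Taf4asKO libraries. Taf4asKO replicate 2 was closer to the controls than to replicate 1. The log2 fold change was -0.25, with an interval from -0.57 to 0.07 (limma, adjusted p = 0.367). It was -0.11 without Taf4asKO replicate 1 and -0.40 without Taf4asKO replicate 2.

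*Plk1*, the gene for the kinase that triggers many steps of mitosis, was the member with higher values in Taf4asKO cells. Its peak (chr7:122159303-122159485) had 11 and 3 in the control and 13 and 12 in the Taf4asKO libraries, and its mean of 9.75 was under the minimum of 10 that was set for testing. Without the minimum the log2 fold change was 0.96, with a 95% interval from -0.61 to 2.53 (limma, adjusted p = 0.492). The value of 3 rests on 0.92 read, that is about 1 read, whereas the Taf4asKO values rest on 30.2 and 17.6 reads. The Taf4asKO libraries were above both controls, closely above control replicate 1 and well above replicate 2. The start of an antisense gene, *Gm15489*, lies within 1000 bases of this peak as well.

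**Figure D4:**
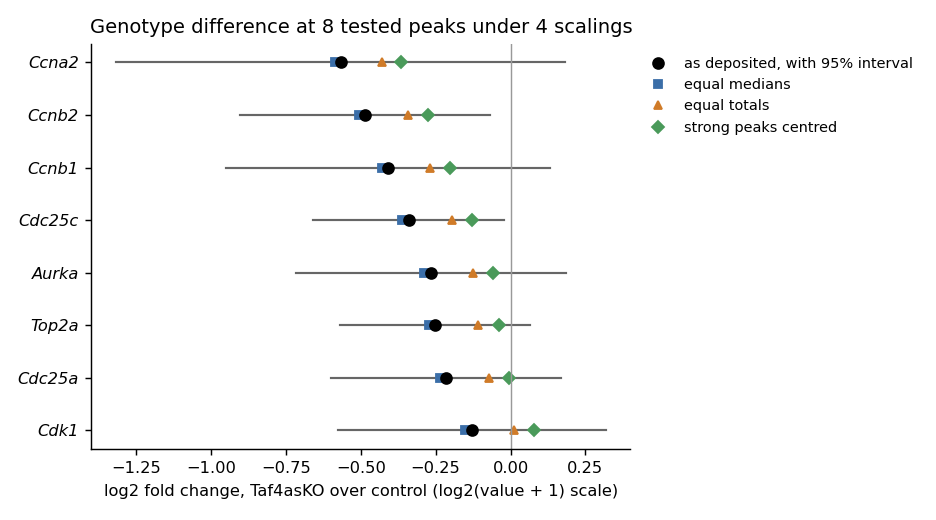
Log2 fold change of Taf4asKO over control on the log2(value + 1) scale at the 8 tested member peaks, with the 95% limma interval (line) for the values as deposited (black), and the same estimate after setting library medians equal (blue), totals equal (orange) or centring on strong peaks (green). The interval excludes 0 at *Ccnb2* and *Cdc25c* before adjustment, and *Cdk1* is the gene whose estimate crosses 0 with the scaling.

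Other genes of the cell cycle machinery were taken from 6 further lists. Of their 87 genes 32 (36.8%) had a peak, and 1 of their 30 tested peaks passed the test, lower in Taf4asKO cells. This was *Ccne1*, the gene for cyclin E1, which drives entry into S phase. Its peak (chr7:38112030-38112601), 4782 bases from the start of the gene and thus not at its promoter, had 182 and 117 in the control and 62 and 65 in the Taf4asKO libraries. The controls differed from each other by more than the lower one did from the Taf4asKO libraries. The estimate on the log2 scale was -1.19 with an SE of 0.22 (limma, adjusted p = 0.0473). The call held with equal medians (0.0105), equal totals (0.0361), a pseudocount of 5 (0.0309) and weights from reads (1.41e-05). It was lost with strong peaks centred (0.0632), with the replicate block (0.0574) and without the minimum (0.285), where no peak of any gene was called. Fits without 1 library cannot decide the call, because each leaves 1 library in a group. The estimate lay between -1.50 and -0.87 over all of these fits. Of the 30 peaks, both control values were above both Taf4asKO values at 14 and the reverse held at 3, compared with 28.6% and 19.3% of all tested peaks, and the median log2 fold change was -0.16.

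By role, the other cyclins and CDKs had peaks at 4 of 16 genes. The cyclins of the D type, *Cdk2*, *Cdk4* and *Cdk6* were among those without one, and the highest mean over the 4 libraries was at *Cks2*, a small CDK-binding subunit, with 118 and 101 in the control and 104 and 142 in the Taf4asKO libraries. The median log2 fold change of the 3 tested peaks of this list was 0.06, with 1 of them below 0. It was 0.2 with equal totals and 0.27 with strong peaks centred. Without Taf4asKO replicate 2 it was -0.14, with all 3 below 0. CDK inhibitors and inhibitory kinases had peaks at 6 of 13 genes, led by *Chek2*, a checkpoint kinase, and none of 6 tested peaks passed (median log2 fold change -0.10, or 0.04 with equal totals). Mitotic kinases and their partners had peaks at 9 of 17 genes, led by *Ensa*, an inhibitor of the phosphatase that opposes CDK1, and none of 9 tested peaks passed (median -0.30, or -0.16 with equal totals and -0.09 with strong peaks centred). Of these 9 peaks 3 had a positive estimate, *Bub1* (0.95, limma, adjusted p = 0.272), *Aurkb* (0.42, adjusted p = 0.456) and *Incenp* (0.38, adjusted p = 0.325). Both Taf4asKO values were above both controls at 2 of the 9 peaks. Subunits, activators and inhibitors of the anaphase-promoting complex, the ubiquitin ligase that ends mitosis by destroying cyclins, had peaks at 7 of 19 genes. At these the Taf4asKO estimate was lower at 6 of 6 tested peaks as deposited (5 with equal totals and 4 with strong peaks centred), and both controls were above both Taf4asKO values at 5. None passed the test (median -0.29, or -0.15 with equal totals and -0.08 with strong peaks centred). *Ube2c*, the gene for the ubiquitin-conjugating enzyme of this complex, passed with equal medians (-0.54, limma, adjusted p = 0.041) and with weights from reads (-0.51, adjusted p = 0.0283). It did not pass as deposited (-0.51, adjusted p = 0.107), with equal totals (-0.37, adjusted p = 0.085) or with strong peaks centred (-0.30, adjusted p = 0.129). Over all tested peaks the shares were 53.8% for a lower estimate and 28.6% for the separation of the libraries. Transcription regulators of the G2 and M phases had peaks at 3 of 13 genes, led by *Rbbp4*, a histone-binding subunit of the DREAM complex, and *Foxm1* and *Mybl2* had none. Condensins and *Top2b*, a topoisomerase gene related to *Top2a*, had peaks at 3 of 9 genes, led by *Ncapd2* with 133 and 117 in the control and 112 and 134 in the Taf4asKO libraries, and the medians of these last lists were -0.02 and -0.03, or 0.12 in both with equal totals. Across all lists the highest peak was *Ensa*, with 675 and 649 in the control and 503 and 568 in the Taf4asKO libraries and a log2 fold change of -0.31 (limma, adjusted p = 0.193), or -0.16 with equal totals and -0.10 with strong peaks centred.

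**Figure D5:**
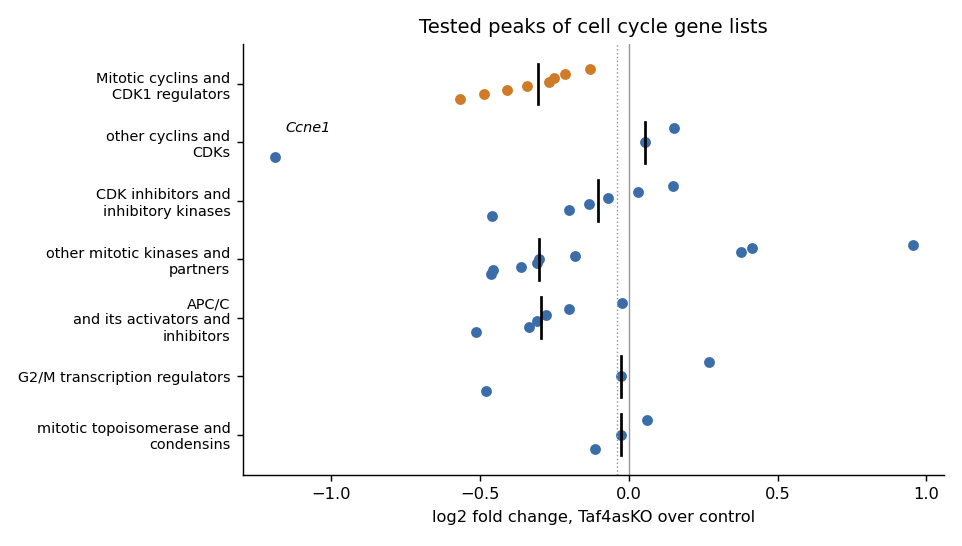
Log2 fold change of Taf4asKO over control for each tested peak (points, spread vertically by rank) of the members (orange) and of 6 other cell cycle lists (blue), with the median of each list as a black bar and the median of all tested peaks, -0.04, as a dotted line. All 8 members lie below 0 as deposited (7 with equal totals or strong peaks centred), and *Ccne1* is the named peak that passed the test.

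Among the peaks of these lists, the pattern most like that of *Cdc25c* over the 4 libraries was at *Chek2*, which had 375 and 372 in the control and 307 and 344 in the Taf4asKO libraries (distance 0.32, as the Euclidean distance of log2(value + 1)). *Cdkn2d*, the gene for the CDK4 and CDK6 inhibitor p19, had 337 and 401 in the control and 246 and 290 in the Taf4asKO libraries (distance 0.37). *Ube2s*, which extends ubiquitin chains for the anaphase-promoting complex, had 409 and 395 in the control and 317 and 347 in the Taf4asKO libraries (distance 0.40). The distance is taken on values as deposited, so that it mainly matches the level, and the choice by it fixes much of the likeness between the libraries.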

How the data were processed

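CUT&RUN libraries of NF-YA and IgG were made from control and Taf4asKO MuSCs, in 4 groups of 2, and the 4 NF-YA libraries were used. The authors trimmed read pairs of 36 bases with Trimmomatic, aligned them to mm10 with STAR, removed duplicates with Picard, called peaks with MACS and merged them. The submitters' processing notes name Trimmomatic 0.39, STAR 2.7.11a, Picard 3.1.1, featureCounts and DESeq2 1.36.0, whereas the study's own documents give other versions of STAR, Picard and DESeq2. The deposited score of a peak is its read count after the authors' DESeq2 normalisation, rounded to whole numbers. A peak was assigned by the authors to the nearest gene start within 10000 bases. Depth was estimated from the steps between values, and the median peak held 16.3, 4.91, 41.8 and 26.4 reads in control replicates 1 and 2 and Taf4asKO replicates 1 and 2. Because the value of 1 read was below 1 in the Taf4asKO libraries, rounding hides their exact read counts, and no count model was run. Depth limits the precision of low peaks, and read numbers cover counting error only.

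Genotypes were compared with limma 3.58.1 (R 4.3.3) on log2(value + 1) with a variance trend, for the 4746 peaks whose mean reached 10. P-values are two-sided and were adjusted over all tested peaks with the Benjamini-Hochberg method, with a threshold of 0.05. Fold changes on this scale understate the change of low peaks. The fit and the search for the value of 1 read were tested on simulated data. Motifs were searched on both strands of mm10 in the central 200 bases of a peak, extended past its ends where it was narrower, or in the whole peak. Gene starts are those of GENCODE M21 and promoters those of RefSeq. Members and lists were chosen with earlier results of these data known. All member peaks are named. Of the other lists, called peaks, the highest peak of each list and the 3 peaks nearest to *Cdc25c* in pattern were named. *Ube2c*, *Bub1*, *Aurkb* and *Incenp* were named after their values were seen. Alternatives were another scaling, minimum, pseudocount, threshold or weighting, a replicate block, leaving out each library, and other windows for motifs and gene starts.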

Additional observations from a re-analysis of the deposited data

How the results depend on the processing

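No member peak passed the test under any of the 12 alternatives, and limma's adjusted p of the 8 members ranged from 0.0991 to 0.99 over them. Of the 8 members *Cdk1* was the one whose estimate changed direction. It turned to 0.01 with equal totals and to 0.08 with strong peaks centred, which shifted the median of all tested peaks to 0.10 and 0.16. *Ncapd2* turned to 0.12 and 0.19 under the same scalings, and lay between -0.15 and 0.10 without 1 library each (above 0 without control replicate 1 or Taf4asKO replicate 1). *Chek2* turned to 0.01 with strong peaks centred. *Cks2* lay between -0.07 and 0.38 without 1 library each, with the value below 0 arising without Taf4asKO replicate 2. The median of the members was -0.30 as reported, -0.16 with equal totals, -0.09 with strong peaks centred and between -0.43 and -0.23 without 1 library each. The calls over all tested peaks numbered 45 (16 higher and 29 lower), 129 with equal medians (32 higher), 61 with equal totals (30 higher), 51 with strong peaks centred (29 higher), 131 at a threshold of 0.1 and 315 with weights from reads. They fell to 0 without a minimum, with 1015 peaks at an unadjusted p under 0.05, and to 0 without any 1 of the 4 libraries, with 227 to 1089 peaks at an unadjusted p under 0.05. In these last fits the lone library is assumed to vary like the other group, and the causes were not tested. The replicate block gave 31 calls (3 higher and 28 lower), 0 of them members. Same-numbered libraries did not clearly deviate together (r = -0.088 across tested peaks and 0.256 across peaks with a mean of at least 100, 2 pairs), so that pairing is not established. Depth was lowest in control replicate 2, where the value of *Ccna2* rests on 6.13 reads. The number of members with a peak remained 9, or 8 with a minimum mean of 10, and CCAAT was in 8 or 9 of 9 member peaks in every window.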
